A study of Homo sapiens with 18 samples.

Results

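The genes described here are 9 transcription factors of the subpallium, the ventral part of the embryonic forebrain, and of the interneurons and projection neurons born there: GSX2, LHX6, LHX8, ISL1, SOX6, MEIS2, FOXP1, ZFHX3 and SP8. They were taken by symbol from the deposited tables, which list 53853 genes, and all 9 symbols were found. RNA was measured in bulk in cerebral organoids of the human embryonic stem cell lines H9 and H1, grown with a ventral forebrain protocol that adds SHH and purmorphamine, activators of the hedgehog pathway. The 3 treatments were compared in each line at day 83. Chronic organoids received 1 µM dopamine daily for 1 week and a final dose for 1 h. Acute organoids received vehicle for that week and then 1 µM dopamine for 1 h, and controls received vehicle throughout. Vehicle was 100 µM ascorbic acid, which was also present with dopamine, so every group had it. The 6 groups had 3 libraries each, 18 in all. Library 9, an H1 control, held 43284 counts, of which 3 fell on these genes, and was left out, so that H1 control values rest on 2 libraries and all others on 3. Whether a group's libraries are separate cultures is not stated in the labels. The p-values therefore measure the spread of these libraries alone, and that spread may be technical.

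The lateral ganglionic eminence of the subpallium gives rise to the projection neurons of the striatum and to interneurons of the olfactory bulb, and the medial ganglionic eminence to cortical and striatal interneurons and to cholinergic neurons of the basal forebrain. Much of what is known of these factors comes from the mouse. GSX2 acts in dividing progenitors of the lateral eminence, SP8 and MEIS2 mark that eminence and cells derived from it, and ISL1 and FOXP1 act in young striatal projection neurons. LHX6, SOX6 and LHX8 act in cells leaving the medial eminence, LHX6 and SOX6 in interneurons and LHX8 in cholinergic neurons.

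The 17 libraries used held 13647204 to 21691180 counts, and 3 counts correspond to 0.138 to 0.22 CPM (counts scaled to library size) in them. In libraries 4, 8, 13, 17 and 18, a set of 5 blood genes had 131 to 2674 counts and a set of 6 gut genes at most 9, whereas the other 12 held at most 27 blood counts and 54 to 91 gut counts. These genes were picked for this split. The 5 libraries with blood transcripts held no chronic one and included 1 of the 2 H1 controls and 2 of the 3 H9 controls. Regional markers differed sharply between the lines. NKX2-1, a factor of the medial eminence, was at 33.2 to 74.6 CPM in H9 libraries and at 0 to 1.03 CPM in H1 libraries. TBR1, of glutamatergic neurons of the dorsal forebrain, was at 0.344 to 2.6 CPM in H9 libraries and at 360.3 to 698.2 CPM in H1 libraries. The H1 organoids thus held abundant dorsal transcripts. NKX2-1 was named here after its values were seen, and 9 of 10 tested hypothalamic genes were higher in H9 too.

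Scaled for transcript length (TPM, the authors' deposited values), MEIS2 was the most abundant of the 9 factors in both lines. It encodes a TALE homeodomain protein and lies at chr15:36889204-37101299 on the minus strand (GENCODE release 44, GRCh38, as are all positions given here). Its median was 86.4 TPM over the 9 H9 libraries, with a range of 58.3 to 121 TPM, and 175.8 TPM over the 8 H1 libraries, with a range of 159.1 to 215.5 TPM. In H9 libraries LHX6 followed with a median of 27.7 TPM, then ISL1 with 19.0 TPM, ZFHX3 with 14.2 TPM, SOX6 with 9.72 TPM, FOXP1 with 8.42 TPM and SP8 with 8.39 TPM. The ranges of neighbours from LHX6 down to SP8 overlapped, although LHX6 was above ISL1 in each of the 9 libraries. FOXP1 was above SP8 in only 2 of 9 libraries, so the order of that pair is not defined. GSX2 and LHX8 came last in H9 with medians of 0.18 and 0.05 TPM. In H1 libraries the order was different, with SP8 at a median of 28.5 TPM, GSX2 at 17.6 TPM, SOX6 at 15.4 TPM, FOXP1 at 11.5 TPM and ZFHX3 at 5.635 TPM. GSX2 was above SOX6 in only 4 of 8 libraries. LHX6, ISL1 and LHX8 were at the bottom in H1, with medians of 0.305, 0.26 and 0.055 TPM and overlapping ranges.

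**Figure D1:**
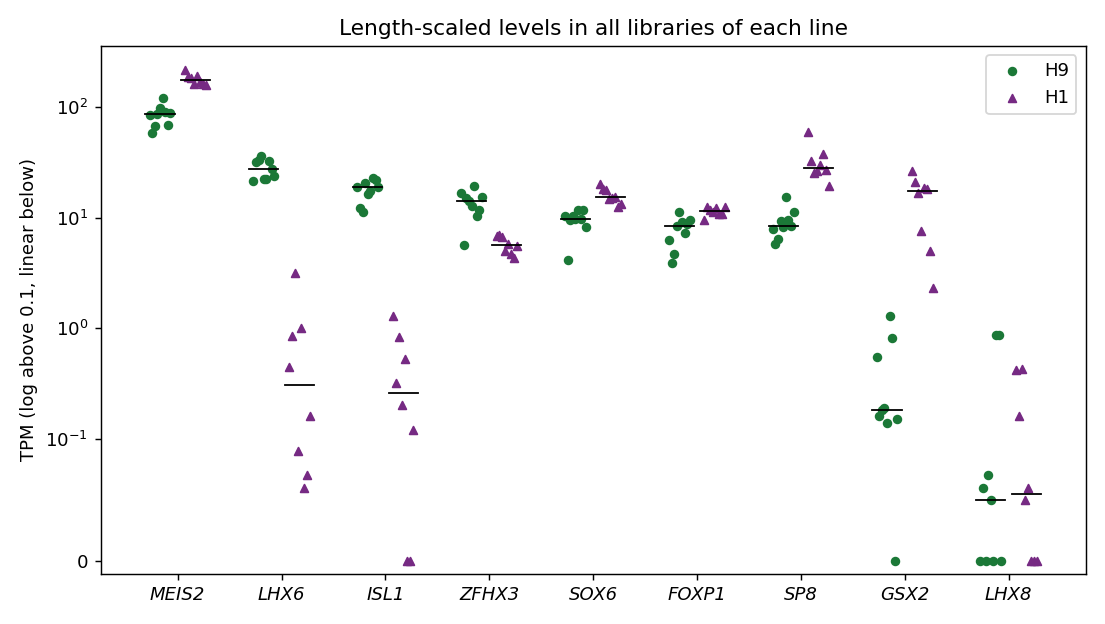
TPM of each factor in the 9 H9 libraries (circles) and the 8 H1 libraries (triangles), on an axis that is logarithmic above 0.1 TPM and linear below; horizontal lines are medians. LHX6 and ISL1 were at 11.3 TPM or more in every H9 library and at 3.16 TPM or less in every H1 library, whereas GSX2 was at 1.28 TPM or less in H9 and at 2.33 TPM or more in H1.

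The lines differed in 8 of the 9 factors, in both directions. The background was wide: edgeR's quasi-likelihood test with Benjamini-Hochberg adjustment called 74.5% of the 17567 genes tested, 38.6% higher and 35.9% lower in H9, at an adjusted p under 0.05. The share of these factors that differed is therefore close to that of all genes, and the values that follow describe direction and size. In bulk RNA, fewer cells of a type and less RNA per cell cannot be told apart. Each line is 1 stem cell line, so the line and its culture run cannot be told apart either.

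Of the factors higher in H9, LHX6 (chr9:122202577-122229626, minus strand), a LIM homeodomain factor that directs interneuron migration and fate, was at 34.0 to 63.6 CPM in H9 libraries and at 0.104 to 5.14 CPM in H1 libraries, after TMM scaling, which is used for all CPM here. The log2 fold change of H9 over H1, averaged over treatments, was 6.13 ± 0.42 (SE, edgeR adjusted p = 5.01e-10). ISL1 (chr5:51383448-51394730, plus strand), a LIM homeodomain factor of striatal and cholinergic neurons that also acts in motor neurons, was at 15.2 to 32.1 CPM in H9 libraries and at 0 to 1.72 CPM in H1 libraries, a log2 fold change of 6.22 ± 0.31 (edgeR adjusted p = 8.58e-12). No library of either line came near the other line for this pair. ZFHX3 (chr16:72782885-73891871, minus strand), a large zinc finger homeodomain protein, was also higher in H9, at a median of 99.5 CPM in H9 libraries and 42.3 CPM in H1 libraries (log2 fold change 1.23 ± 0.15, edgeR adjusted p = 7.00e-07). Its lowest H9 value, 50.3 CPM in library 11, was below its highest H1 value of 50.4 CPM, so the lines touched there. SOX6 was also lowest in library 11, a chronic H9 library, at 13.9 CPM.

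LHX8 (chr1:75128434-75161533, plus strand), which in the mouse is needed for forebrain cholinergic neurons, was barely detected. It had 30 reads in the 9 H9 libraries together and 18 reads in the 8 H1 libraries, and the lines did not pass the test (edgeR adjusted p = 0.437). Of the 30 reads in H9, 27 came from 2 control libraries.

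The lateral factor GSX2 (chr4:54099523-54102498, plus strand), a homeodomain protein, showed the opposite pattern to LHX6, with 20 reads in all 9 H9 libraries against 731 in the 8 H1 libraries. It reached at most 0.43 CPM in H9 and was at 0.842 to 9.41 CPM in H1, so that the lines did not overlap (log2 fold change -4.80 ± 0.41, edgeR adjusted p = 1.00e-08). SP8 (chr7:20782279-20786886, minus strand), a zinc finger factor of lateral and caudal interneuron lineages, was at 7.05 to 16.2 CPM in H9 libraries and 21.6 to 64.3 CPM in H1 libraries, a log2 fold change of -1.79 ± 0.17 (edgeR adjusted p = 3.54e-08). MEIS2 was at 106.5 to 179.9 CPM in H9 and 253.1 to 335.1 CPM in H1, a log2 fold change of -1.09 ± 0.08 (edgeR adjusted p = 1.74e-09). SP8 and MEIS2 thus also had no library of H9 within the range of H1. SP8 and MEIS2 are not specific to the subpallium, and the dorsal forebrain also uses them. SOX6 (chr11:15966449-16739591, minus strand, where the opposite-strand gene C11orf58 overlaps it), an HMG-box factor of maturing interneurons and of dorsal progenitors, was at a median of 27.6 CPM in H9 and 44.7 CPM in H1 (log2 fold change -0.74 ± 0.11, edgeR adjusted p = 1.45e-05). FOXP1 (chr3:70954693-71583978, minus strand), a forkhead factor of striatal and of cortical projection neurons, was at a median of 26.1 CPM in H9 and 37.4 CPM in H1 (log2 fold change -0.65 ± 0.09, edgeR adjusted p = 3.89e-06). These 8 calls held in all 28 alternatives run. GENCODE also lists an unnamed protein-coding gene on the same strand over GSX2 and another over FOXP1. Neither is among the counted genes, and their part in the reads of these factors was not tested.

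**Figure D2:**
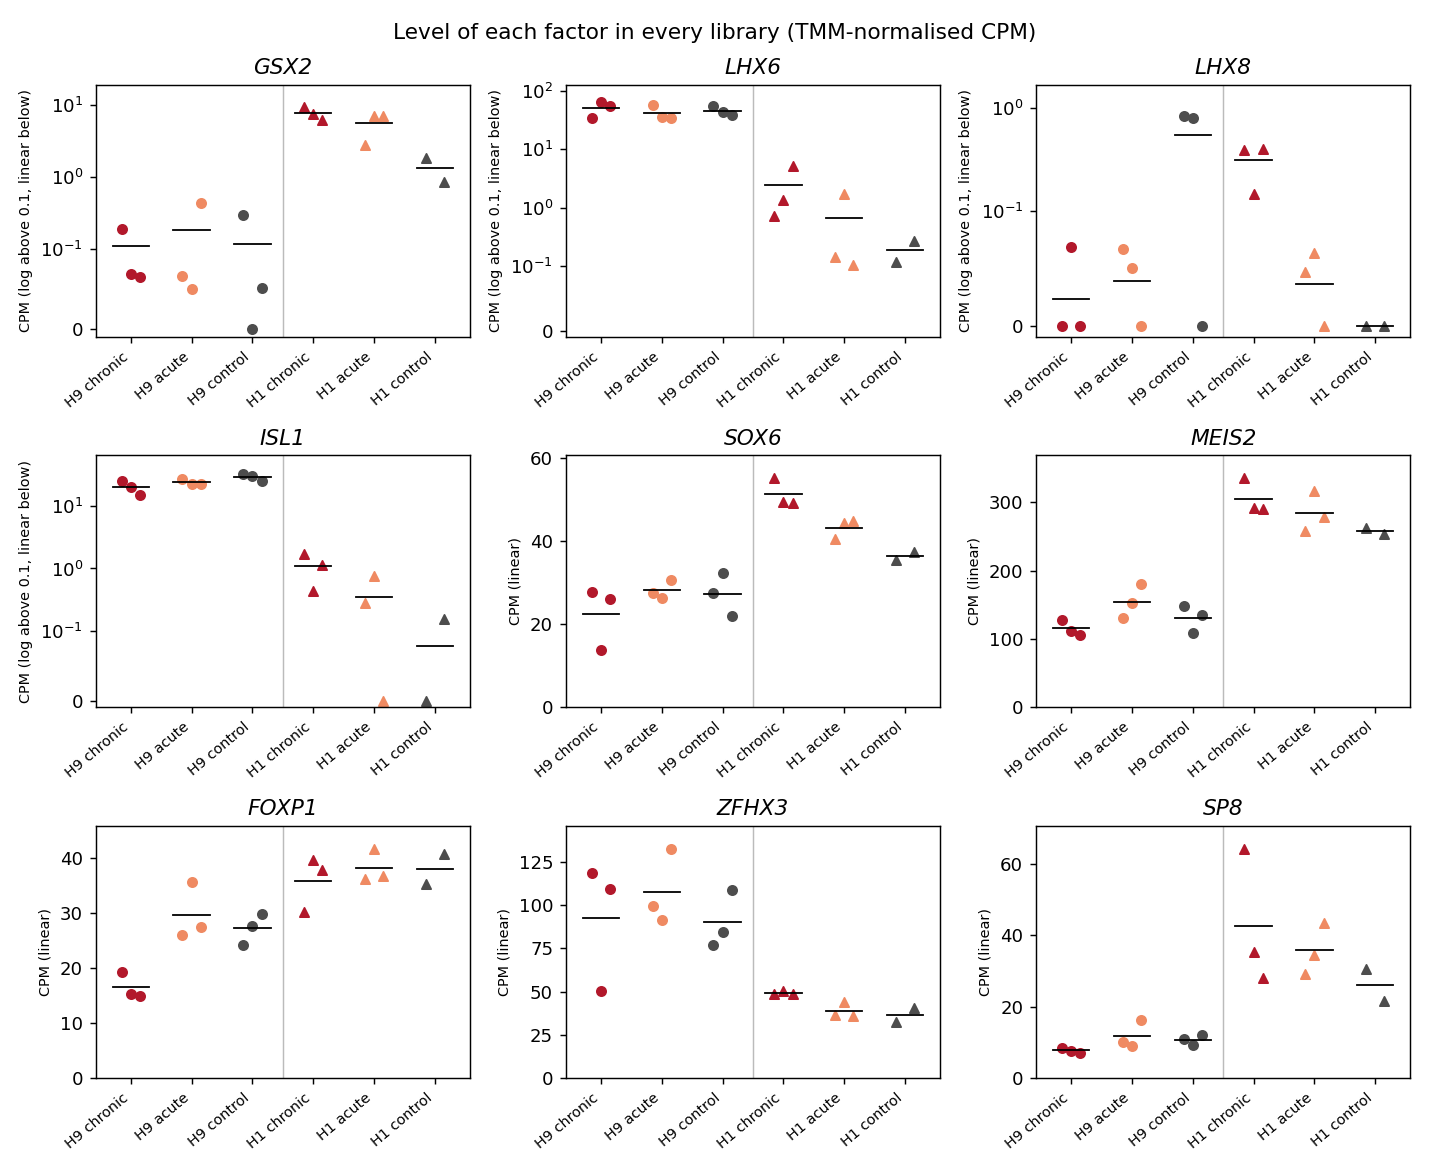
CPM of each factor by group, with H9 groups as circles on the left of the grey line and H1 groups as triangles on the right, 1 point per library and a bar at the group mean (n = 2 in H1 control, 3 elsewhere). The upper row and ISL1 have an axis that is logarithmic above 0.1 CPM and linear below; the other panels are linear from 0. FOXP1 was at 14.9 to 19.4 CPM in the chronic H9 libraries, below the 24.2 to 35.6 CPM of the other H9 libraries.

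Other subpallial genes divided between the lines as well. Of 33 tested factors of the ganglionic eminences outside the 9, 17 were higher and 10 lower in H9. Over all genes tested 74.5% were called, 38.6% higher and 35.9% lower, and the counts in this paragraph stand against that background. BCL11B, a factor of striatal and of deep cortical projection neurons, and SATB1 and ZEB2, of interneurons and cortical neurons, were among the lower ones, with log2 fold changes of -4.28 ± 0.10, -2.13 ± 0.07 and -2.93 ± 0.10 (edgeR adjusted p = 1.23e-15, 7.71e-14 and 1e-13). NR2F2, of the caudal eminence, was higher, by 2.67 ± 0.08 (edgeR adjusted p = 8.83e-15). Among 19 interneuron effector genes 15 were higher in H9 and 1 was lower, including the peptide gene SST with 7.59 ± 0.31 and the GABA-synthesising enzyme GAD1 with 5.01 ± 0.23 (edgeR adjusted p = 6.36e-13 and 3.33e-12). Of 16 dorsal forebrain genes 15 were lower in H9. Of 10 tested hypothalamic genes 9 were higher in H9, and their summed level was 82.8 to 152.1 CPM in H9 libraries and 1.84 to 14.8 CPM in H1 libraries. Genes of motor, sensory and hindbrain neurons, in which ISL1 and LHX family factors also act, summed to 20.6 to 74.5 CPM in H9 and 15.4 to 28.7 CPM in H1. Of 12 tested, 8 were called higher and 1 lower in H9, with PRPH, EYA2 and HOXA2 higher by 3.64 ± 0.23, 3.87 ± 0.29 and 7.48 ± 0.50 on the log2 scale and NEUROG1 lower (edgeR adjusted p = 2.43e-10, 1.74e-09, 5.14e-09 and 3.41e-12). In H9, 9 of these 17 genes had a median under 1 CPM, among them the motor neuron factors MNX1 and LHX3. The part of these other cell types in the differences above was not tested.

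The sequence just before the RefSeq start is shown for GSX2, ISL1 and SP8, which differed most clearly between lines or treatments and have 1 annotated start each. The windows are the 250 bases before the start in RefSeq (GRCh38.p14), read 5′ to 3′ on the gene's strand, and lie at chr4:54099913-54100162 (plus), chr5:51383198-51383447 (plus) and chr7:20786887-20787136 (minus). The GSX2 window lies inside the GENCODE span given above, because GENCODE also lists a transcript that starts further upstream. Capitals mark TAAT or its reverse complement ATTA, the core bound by many homeodomain proteins, though not by all. GSX2, ISL1, LHX6, LHX8, MEIS2 and ZFHX3 have a homeodomain, and whether they bind this core was not tested.
GSX2: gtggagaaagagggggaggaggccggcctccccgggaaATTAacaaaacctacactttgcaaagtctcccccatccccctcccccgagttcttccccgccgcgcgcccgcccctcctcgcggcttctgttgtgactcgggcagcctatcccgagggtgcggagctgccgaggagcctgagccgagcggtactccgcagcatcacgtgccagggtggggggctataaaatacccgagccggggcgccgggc
ISL1: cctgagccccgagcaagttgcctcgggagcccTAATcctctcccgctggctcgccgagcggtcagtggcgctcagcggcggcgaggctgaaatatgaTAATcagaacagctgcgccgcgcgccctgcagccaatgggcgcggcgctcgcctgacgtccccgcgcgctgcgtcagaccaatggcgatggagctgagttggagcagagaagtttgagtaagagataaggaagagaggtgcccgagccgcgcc
SP8: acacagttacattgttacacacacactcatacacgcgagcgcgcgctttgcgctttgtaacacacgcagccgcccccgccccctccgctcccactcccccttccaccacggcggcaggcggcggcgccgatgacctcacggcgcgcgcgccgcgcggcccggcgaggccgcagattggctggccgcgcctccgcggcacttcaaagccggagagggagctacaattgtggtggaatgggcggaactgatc
The core stood 1 time in the GSX2 window and 2 times in the ISL1 window, and these letters were not in the SP8 window. TAAT on either strand occurs in 47.4% of 35116 RefSeq windows of this length, so a match describes the letters and is no binding site. The palindrome TAATTA, which contains both TAAT and ATTA, occurs in 4.35% of all windows. Among the 25 windows of the 9 genes it was in 1, that of a ZFHX3 start, at chr16:73059022-73059271 on the minus strand, with 2 copies.

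Chronic dopamine in H1 organoids was accompanied by a higher level of GSX2, and by higher values of LHX6, ISL1 and LHX8 that did not pass the test. GSX2 was at 9.41, 7.50 and 6.06 CPM in the chronic H1 libraries, against 1.83 and 0.842 CPM in the H1 controls. All 3 chronic libraries were above both controls. The log2 fold change was 2.52 ± 0.55 (SE, edgeR adjusted p = 0.0273). GSX2 was the only 1 of the 9 factors called, and 1.59% of all 17567 genes were called in this comparison, 1.30% higher and 0.290% lower. That is 229 genes higher and 51 lower, against 15 and 1 without the control library 8. The call rests on few controls. It was lost without library 8 (2.06, adjusted p = 0.505), without library 7 (3.18, adjusted p = 0.0739), and without library 1 or 2 (adjusted p = 0.118 and 0.0608). Among the libraries with gut transcripts alone, which leave 1 H1 control, the log2 fold change was 2.04 (adjusted p = 0.354).

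The other factors with few reads in H1 are best read from the counts. ISL1 had 31, 6 and 20 reads in the chronic H1 libraries, against 0 and 3 in the controls. Pooled and scaled to library size, that is a ratio of 14.0, with an exact 95% counting interval of 4.57 to 70.1. Such intervals cover counting error only. The fitted log2 fold change was 3.68 ± 0.96 (edgeR adjusted p = 0.0684). LHX6 had 13, 19 and 90 reads in the chronic H1 libraries, against 2 and 5 in the controls, a pooled ratio of 12.9 with an interval of 6.06 to 32.7. Most of the LHX6 reads came from library 3, and the fitted log2 fold change was 3.62 ± 1.11 (edgeR adjusted p = 0.139). LHX8 had 7, 2 and 7 reads in the chronic H1 libraries and none in the controls. Against a floor of 3 counts over the control group, LHX8 was at least 3.94-fold higher in chronic H1, while the exact 95% counting interval of the ratio reaches down to 2.85 (edgeR adjusted p = 0.255). For ISL1, LHX6 and LHX8 each chronic library was above both controls, but the levels stayed far under those of H9 for LHX6 and ISL1.

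**Figure D3:**
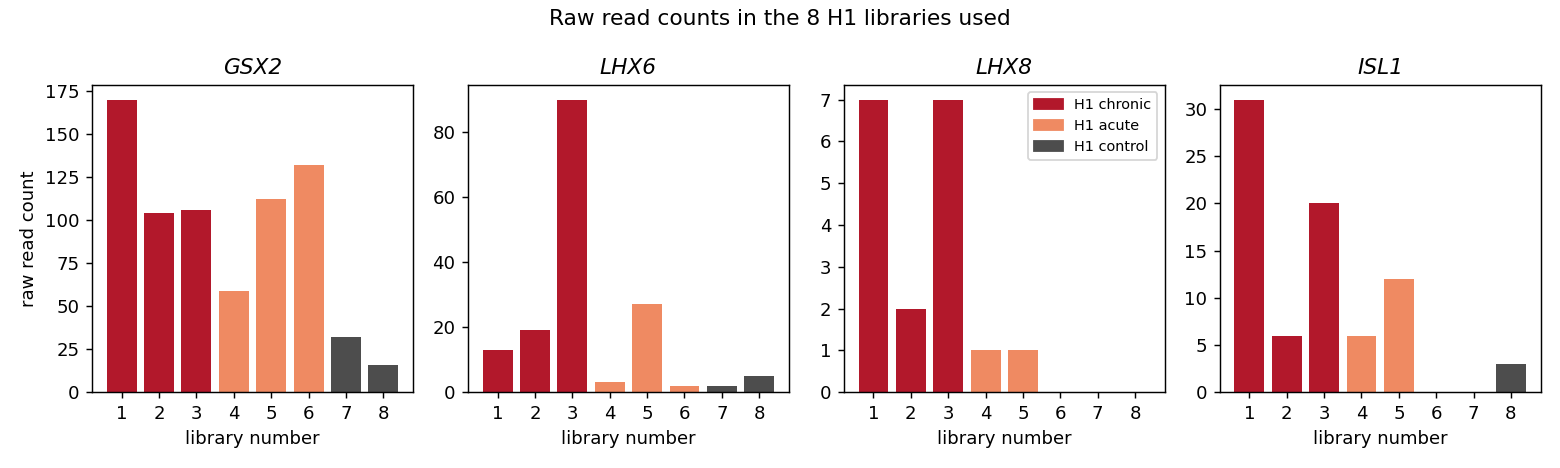
Raw read counts of GSX2, LHX6, LHX8 and ISL1 in the 8 H1 libraries used, chronic first, then acute, then control; bars start at 0 and each panel has its own scale. The controls, libraries 7 and 8, had 32 and 16 reads of GSX2 and at most 5 reads of the other genes.

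The more abundant factors differed less. SOX6 was at 55.1, 49.4 and 49.3 CPM in chronic H1, against 35.5 and 37.4 CPM in control, and its groups did not overlap. The log2 fold change was 0.49 ± 0.21 (edgeR adjusted p = 0.385). SP8 was at 64.3, 35.3 and 28.1 CPM in chronic H1, against 30.7 and 21.6 CPM in control, with overlapping groups and a log2 fold change of 0.71 ± 0.30 (edgeR adjusted p = 0.386). ZFHX3 averaged 49.4 ± 0.907 CPM in chronic H1 (SD, n = 3) and 36.6 ± 5.77 CPM in control (SD, n = 2), a log2 fold change of 0.43 ± 0.27 (edgeR adjusted p = 0.648). MEIS2 averaged 305.6 ± 25.6 CPM in chronic H1 and 257.7 ± 6.47 CPM in control, with a log2 fold change of 0.25 ± 0.15 (edgeR adjusted p = 0.640). FOXP1 averaged 35.9 ± 4.97 CPM in chronic H1 and 38.1 ± 3.79 CPM in control, with a log2 fold change of -0.09 ± 0.16 (edgeR adjusted p = 0.934). Of the 8 factors other than LHX8, 7 had a positive fold change, with a median log2 value of 0.599, against 0.008 over all genes tested.

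Many other factors of the ganglionic eminences were higher in chronic H1 organoids. Of 33 tested, 12 rose and 2 fell, against 1.30% and 0.290% of all genes, with a median log2 fold change of 0.873. NR2F2 averaged 79.2 ± 6.27 CPM in chronic H1 and 41.5 ± 6.81 CPM in control (log2 fold change 0.93 ± 0.14, edgeR adjusted p = 0.0025). SIX3, a homeodomain factor of the ventral forebrain, averaged 20.5 ± 2.72 CPM in chronic H1 and 3.39 ± 0.0384 CPM in control (2.59 ± 0.46, adjusted p = 0.00895). ZNF503, a zinc finger factor of striatal precursors, and DLX6, of the distal-less family that drives GABAergic fate, rose by 1.28 ± 0.23 and 3.03 ± 0.56 on the log2 scale (edgeR adjusted p = 0.0111 and 0.0116). The other genes that rose were DLX1, DLX2, DLX5, SP9, EBF1, PBX3, NPAS1 and NPAS3, and those that fell were SATB1 and ETV1, named here after their values were seen. NKX2-1, the medial factor upstream of LHX6, was at 0.166 to 1.03 CPM in chronic H1 and at 0 to 0.0571 CPM in control and did not pass (edgeR adjusted p = 0.244). The count of higher factors was also 12 with the library class as a covariate and was 10 with library 9 included. It was 1 without library 8, an H1 control, and 0 among the libraries with gut transcripts.

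**Figure D4:**
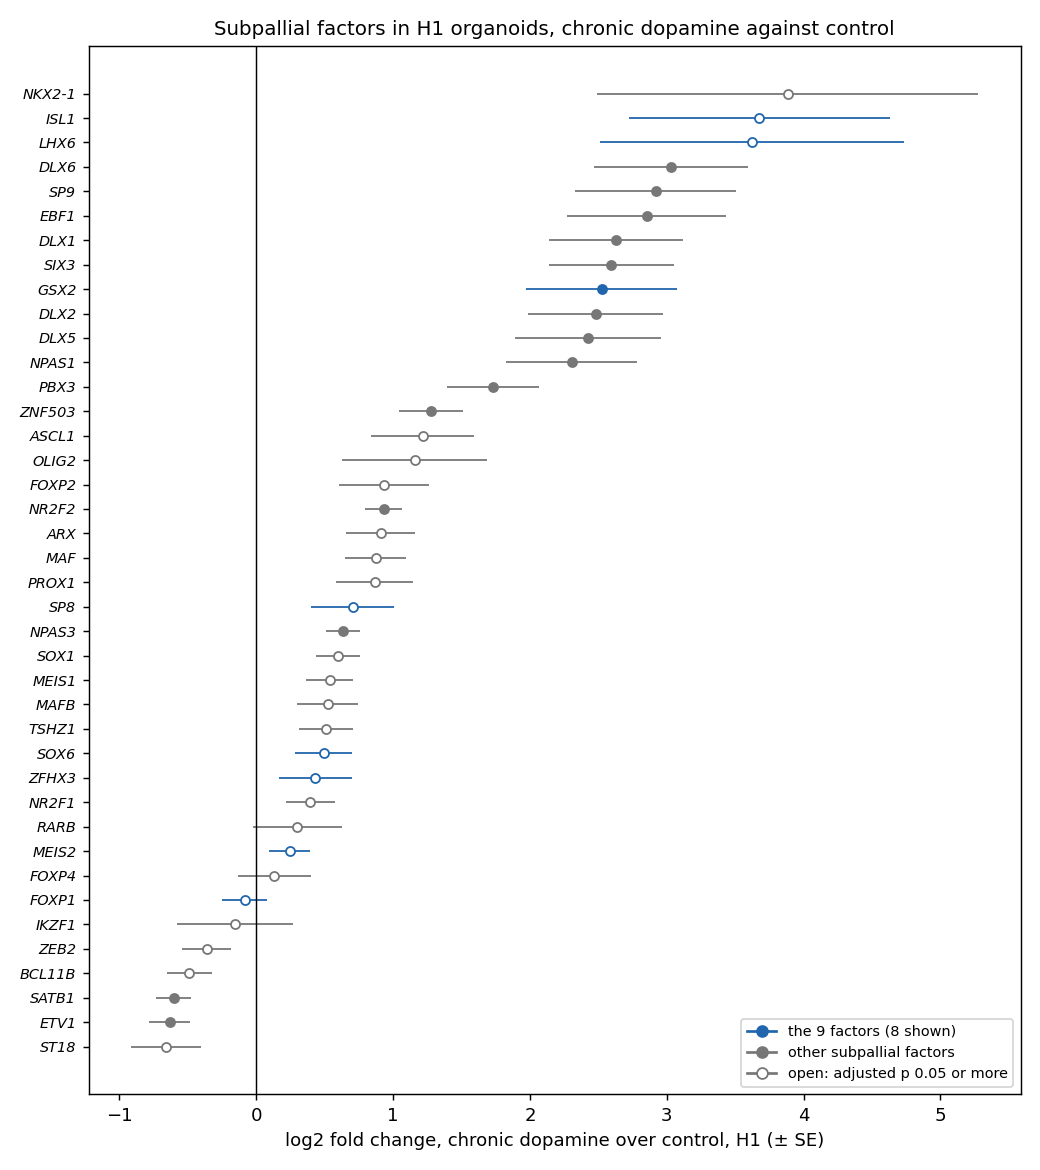
Log2 fold change ± SE of chronic dopamine over control in H1 for 8 of the 9 factors (blue) and 32 other factors of the ganglionic eminences (grey); filled points have an adjusted p under 0.05. LHX8 and NKX6-2, without reads in the H1 controls, are not drawn. GSX2, at 2.52, lies among DLX1, DLX2, DLX5 and SIX3.

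Some close relatives and partners of the 9 factors were also called higher in chronic H1. The counts in this paragraph stand against 1.30% of all genes called higher and 0.290% called lower. With the library class as a covariate, 157 genes in all were higher and 18 lower. These calls rest on the same 2 H1 controls as that of GSX2, and their dependence on single libraries is not given here. Of 13 tested relatives SOX13, SP9 and LHX5 rose, by 2.07 ± 0.24, 2.92 ± 0.59 and 1.47 ± 0.34 on the log2 scale (edgeR adjusted p = 0.000431, 0.0167 and 0.0363). Of 12 partner genes, PBX3, a TALE partner of MEIS proteins, rose by 1.73 ± 0.34 and LMO2, a LIM-only protein, by 1.46 ± 0.30 (edgeR adjusted p = 0.0141 and 0.0206). As a group the 12 partners had a median log2 fold change of 0.021, with 6 positive, against 0.008 over all genes tested. The 13 relatives had a median of 0.536, with 10 positive. SP9 and PBX3 were already counted among the factors of the ganglionic eminences that rose, and LHX5 had a median under 1 CPM in H1. Of 19 interneuron effectors 6 rose and none fell, among them GAD1 by 3.08 ± 0.41, ERBB4 by 2.66 ± 0.40, SLC32A1 by 2.69 ± 0.45 and GAD2 by 2.64 ± 0.48 (edgeR adjusted p = 0.0013, 0.00316, 0.00642 and 0.0111). Of 18 genes of striatal projection neurons RXRG, TAC1 and PDE1B rose, by 2.71 ± 0.31, 2.98 ± 0.40 and 2.04 ± 0.28 (edgeR adjusted p = 0.000365, 0.00141 and 0.00144). None of 9 tested genes of basal forebrain cholinergic neurons was called. Markers of other tissues moved with the chronic group too. The 11 retina and pigment genes summed to 19.4 to 21.5 CPM in chronic H1 libraries and 4.05 to 4.74 CPM in controls, with 4 of 7 tested called higher, although 9 of the 11 had a median under 1 CPM. The 13 mesenchymal genes summed to 99.6 to 149.5 CPM in chronic H1 and 49.7 to 51.4 CPM in control, with none of 12 called. The 16 dorsal forebrain genes summed to 2339 to 2776 CPM in chronic H1 and 3761 to 4454 CPM in control, with FEZF2 alone called lower (edgeR adjusted p = 0.0488). The part of these cell types in the GSX2 result was not tested.

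In H9 organoids chronic dopamine was accompanied by a lower level of FOXP1. It was at 19.4, 15.3 and 14.9 CPM in the chronic H9 libraries, against 24.2, 27.7 and 29.9 CPM in the H9 controls, and the groups did not overlap. The log2 fold change was -0.72 ± 0.15 (edgeR adjusted p = 0.0400). FOXP1 was the only 1 of the 9 called, where 0.649% of all genes were called, 0.0171% higher and 0.632% lower. That is 3 genes higher and 111 lower, against 0 and 3 without the control library 17. The adjusted p was close to the threshold. Of the 17 fits that left out a library, it passed only in those without library 1, 10, 13, 14 or 16, and its range over the 17 was 0.0244 to 0.1845, highest without the control library 17. It was 0.138 with the library class as a covariate and 1 when the 5 libraries with blood transcripts were left out, which leaves 1 H9 control and gave a log2 fold change of -0.55.

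The other factors did not pass in H9. ISL1 was at 25.0, 20.2 and 15.2 CPM in chronic H9, against 32.1, 29.5 and 25.2 CPM in control, just without overlap, with a log2 fold change of -0.52 ± 0.31 (edgeR adjusted p = 0.547). SP8 was at 8.38, 7.70 and 7.05 CPM in chronic H9, against 10.9, 9.13 and 12.2 CPM in control, also without overlap (-0.48 ± 0.29, edgeR adjusted p = 0.560). LHX6, so abundant in this line, averaged 50.6 ± 15.1 CPM in chronic H9 and 45.8 ± 8.53 CPM in control (SD, n = 3 each), with a log2 fold change of 0.14 ± 0.43 (edgeR adjusted p = 0.934). MEIS2, SOX6 and ZFHX3 had log2 fold changes of -0.18 ± 0.13, -0.27 ± 0.19 and 0.04 ± 0.23 (edgeR adjusted p = 0.656, 0.619 and 0.970). GSX2 had 5 reads in chronic H9 and 6 in control, a pooled ratio of 0.959 with an interval of 0.232 to 3.77. LHX8 had 0, 1 and 0 reads in chronic H9, against 14, 13 and 0 in control, a pooled ratio of 0.0426 with an interval of 0.00104 to 0.259 (edgeR adjusted p = 0.187). Its reads were thus in 2 of the 3 controls. Of the 8 factors other than LHX8, 6 had a negative fold change, with a median log2 value of -0.225, against 0.01 over all genes. The signs of GSX2, ZFHX3 and LHX6, all close to 0 here, changed under some alternatives.

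Among the 33 other subpallial factors SATB1 alone was called in chronic H9, at 19.8 ± 1.95 CPM in chronic H9 and 34.6 ± 3.58 CPM in control (log2 fold change -0.80 ± 0.12, edgeR adjusted p = 0.0109). None of the 33 was called with all 18 libraries or with the library class as a covariate. The mesenchymal genes stood out in this comparison, since 5 of 12 were called lower, among them COL6A3, COL3A1 and COL1A2. Their summed level was 41.1 to 47.1 CPM in chronic H9 and 75.1 to 453.1 CPM in control. The lowest control, at 75.1 CPM, was library 16, the only H9 control with gut transcripts. The other controls, libraries 17 and 18, hold blood transcripts, so treatment and library class are largely bound together here. Over all genes, the 111 lower calls fell to 15 with the library class as a covariate and to 3 without library 17. How many of the mesenchymal calls remained in those fits is not given here. The part of mesenchymal cells in the FOXP1 result was not tested.

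**Figure D5:**
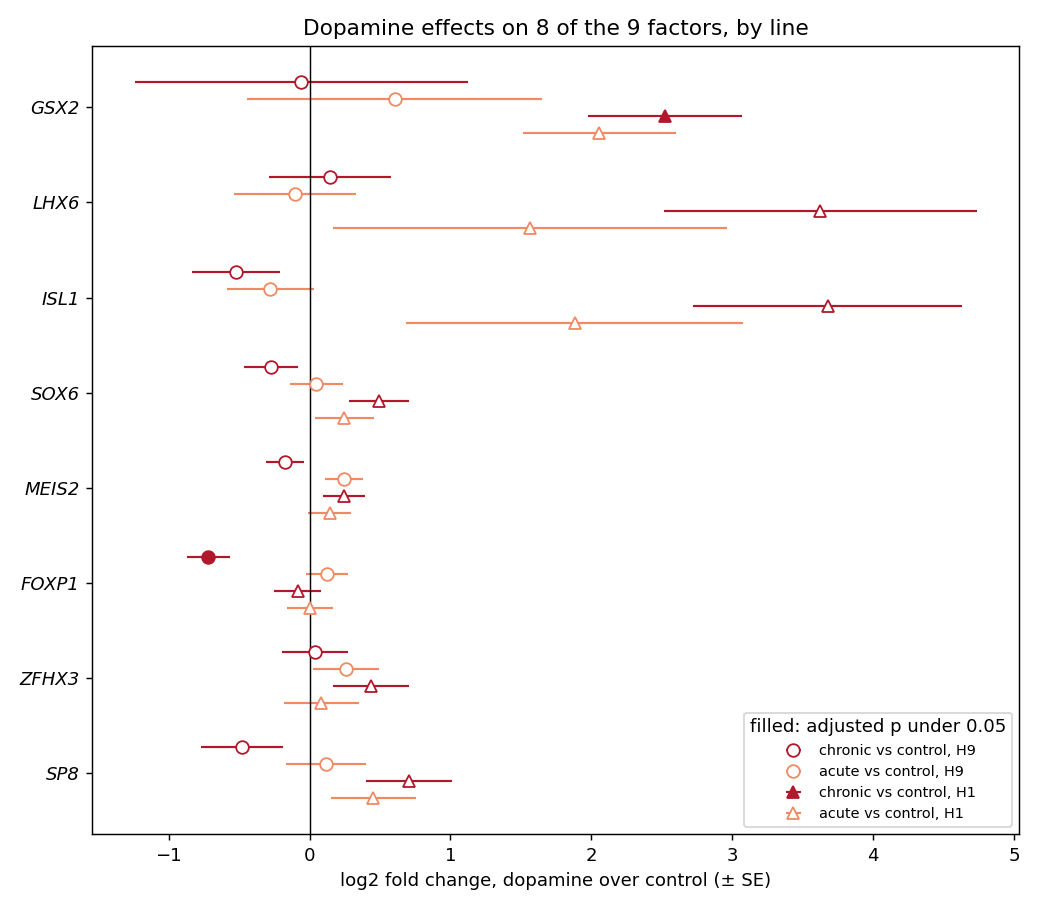
Log2 fold change ± SE over control of chronic (red) and acute (orange) dopamine, in H9 (circles) and H1 (triangles), for the 8 factors other than LHX8; filled points have an adjusted p under 0.05. The filled points are GSX2 in chronic H1, at 2.52, and FOXP1 in chronic H9, at -0.72; the chronic and acute values of a line share its controls.

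After 1 h of dopamine none of the 9 factors was called in either line. The background was 0.0114% of genes in H1, which is 2 genes, and 0 of 17567 genes in H9. At an unadjusted p under 0.05 edgeR had 1 of the 9 factors in each line, GSX2 in H1 and LHX8 in H9. DESeq2 called none of the 9 in either line. Over all genes in H9, 240 were higher and 286 lower by edgeR before adjustment (p under 0.05), while DESeq2 called 7 higher and 5 lower. In H1, 474 were higher and 146 lower by edgeR before adjustment, while DESeq2 called 23 higher and 0 lower. The DESeq2 calls are at an adjusted p under 0.05, an unlike threshold. In either line the genes that passed by edgeR before adjustment were together under the share of 0.05 expected where none differs. GSX2 was at 2.74, 7.08 and 6.88 CPM in acute H1, against 1.83 and 0.842 CPM in control. Every acute library was above both controls. The log2 fold change was 2.06 ± 0.55 (edgeR adjusted p = 0.637). The lowest acute value came from library 4, which holds blood transcripts. LHX6 had 3, 27 and 2 reads in acute H1, against 2 and 5 in control, and ISL1 had 6, 12 and 0 reads in acute H1, against 0 and 3 in control. For these genes library 5 carried most acute reads and the groups overlapped. LHX8 had 1, 1 and 0 reads in acute H1 and none in control, at or under the floor. SOX6, at 40.5 to 45.0 CPM in acute H1, lay between the chronic and the control libraries without overlapping either. All 8 factors other than LHX8 had a positive fold change in acute H1, with a median log2 value of 0.350, against 0.014 over all genes, although the sign of FOXP1 turned negative under limma. The acute and chronic comparisons share their controls, so their directions are not independent. In acute H9, LHX8 had 1, 1 and 0 reads, against 14, 13 and 0 in control, a pooled ratio of 0.0763 with an interval of 0.0088 to 0.304 (edgeR adjusted p = 1). The remaining 8 factors in acute H9 had log2 fold changes from -0.28 for ISL1 to 0.60 for GSX2. Of the other subpallial factors and of the effector, partner and marker genes, none was called in either line.

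Chronic was also compared with acute dopamine directly, without the control means, although control libraries still entered the fit that estimated the spread. In H9, FOXP1 was lower in this comparison too, at 19.4, 15.3 and 14.9 CPM in chronic libraries, against 26.1, 35.6 and 27.5 CPM in acute libraries. The log2 fold change was -0.85 ± 0.15 (edgeR adjusted p = 0.00998), where 1.45% of genes were called, 0.216% higher and 1.23% lower. The chronic libraries are the same as in the comparison with control, so this result is not independent of that one. The call was lost without library 14, the acute library of highest FOXP1 (-0.69, adjusted p = 0.0752), when only those 2 groups were fitted (adjusted p = 0.201), and among libraries with gut transcripts (-0.93, adjusted p = 0.0583). MEIS2 was at 128.5, 112.1 and 106.5 CPM in chronic H9, against 131.4, 152.6 and 179.9 CPM in acute H9, without overlap (-0.42 ± 0.13, edgeR adjusted p = 0.123). SATB1, EBF1, BCL11B and ZEB2 were lower too, with edgeR adjusted p of 0.00169, 0.0204, 0.0305 and 0.035 and, for the last 3, log2 fold changes of -2.05 ± 0.42, -0.80 ± 0.17 and -0.75 ± 0.17, and 29 of the 33 other factors were not called. Of 16 dorsal forebrain genes 5 were called lower, although their summed level was at most 135.5 CPM in chronic H9 and 149.9 to 169.7 CPM in acute H9. In H1 none of the 9 factors was called between chronic and acute, where 0.0455% of genes were called. At an unadjusted p under 0.05 edgeR had 3 of the 9, LHX6, LHX8 and ISL1, and DESeq2 called ISL1. Over all 17567 genes, 784 were higher and 412 lower by edgeR before adjustment, while DESeq2 called 81 higher and 15 lower. GSX2 had a log2 fold change of 0.47 ± 0.42 there (edgeR adjusted p = 0.917), ISL1 of 1.80 ± 0.63 (adjusted p = 0.543) and LHX6 of 2.06 ± 0.77 (adjusted p = 0.599).

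Whether chronic dopamine acted differently in the lines was tested as the H9 effect minus the H1 effect. ISL1 and LHX8 were called, where 1.72% of genes were called, 0.188% higher and 1.54% lower. For ISL1 the difference was -4.20 ± 1.00 on the log2 scale (edgeR adjusted p = 0.0415), from -0.52 in H9 and 3.68 in H1, neither of which passed alone. It was lost without library 1, 3, 7, 8, 12, 13, 15, 16 or 17, and the adjusted p was highest, at 0.1915, without the H1 control library 7. Without the H1 control library 8, which holds all 3 control reads of ISL1, the difference was -7.81. It was also lost among the libraries with gut transcripts (adjusted p = 0.4477) and by limma with either pseudocount. LHX8 went the opposite way in the lines, with 1 read in chronic H9 against 27 in control and 16 reads in chronic H1 against none in control (edgeR adjusted p = 0.0471), and its fitted difference has no defined size. The LHX8 call was lost in 13 of the 15 fits without a library that gave it a value, all but those without library 11 or 18, with an adjusted p of up to 0.2069. It was also lost among the libraries with gut transcripts (adjusted p = 0.2227), by limma with either pseudocount and with only the groups compared. FOXP1, called in H9, differed between lines by -0.64 ± 0.22 (edgeR adjusted p = 0.177), and GSX2, called in H1, by -2.58 ± 1.38 (edgeR adjusted p = 0.426), so edgeR showed neither effect to differ between lines. By limma on log2(TPM + 1) the GSX2 difference did pass, at -2.31 (adjusted p = 0.03968). LHX6, SOX6 and SP8 gave -3.48 ± 1.23, -0.77 ± 0.28 and -1.18 ± 0.42 (edgeR adjusted p = 0.175, 0.204 and 0.179). All 9 differences were negative, and the median of the 8 without LHX8 was -0.975, against -0.021 over all genes. Of the 33 other subpallial factors, 8 were called lower and none higher, among them NR2F2, EBF1, SIX3 and PROX1, and 1 to 12 were called lower when a library was left out. In libraries with gut transcripts none was called lower, and with the library class as a covariate 14 were. For the acute effect no gene differed between lines by edgeR, and none of the 9 factors had an unadjusted p under 0.05. Before adjustment, 193 genes were higher and 522 lower at p under 0.05 by edgeR, together under the share of 0.05 expected where none differs. DESeq2 called 8 genes in that comparison, none of them among the 9.

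The genes whose levels followed each factor most closely were listed within a line, over 8 H1 or 9 H9 libraries that share depth and treatment groups, as a description. In H1, GSX2 was followed by LIX1, VAX1 and ANGPT1, with Pearson r of 0.994, 0.991 and 0.983 over log2 CPM. VAX1 is itself a ventral forebrain homeodomain factor. SP8 in H1 was followed by BMPR1B, SMOC1 and SLC1A3, with r of 0.971, 0.961 and 0.952. Within the 9 factors, GSX2, SOX6 and MEIS2 ran together in H1, with r of 0.876 for GSX2 and SOX6, 0.836 for GSX2 and MEIS2 and 0.829 for SOX6 and MEIS2. In H9, FOXP1 was followed by NMNAT3, PLK2 and OLFML2B (r of 0.986, 0.978 and 0.971) and LHX6 by HMX1, ISOC1 and SLC6A11 (r of 0.965, 0.945 and 0.943). ISL1 in H9 had less close partners, GUSB, UAP1L1 and HNRNPUL2, with r of 0.906, 0.897 and 0.893. ZFHX3 in H9 was followed by SOCS7, PLCB1 and ZFP30 (r of 0.993, 0.992 and 0.990). Among the factors themselves, MEIS2 and SP8 had the highest r in H9, 0.816, and LHX6 and ZFHX3 the lowest, -0.690. Library 11 held the highest LHX6 and the lowest ZFHX3 of the H9 libraries, 63.6 and 50.3 CPM. How far the r values of these genes in H9 rest on that library was not tested.

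None of the 9 factors was among the 55 genes of the acute or the 213 genes of the chronic comparison in the authors' deposited tables. The labels and tables do not name the libraries behind those comparisons.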

How the data were processed

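Bulk poly(A) RNA-seq, with strand-specific dUTP paired-end libraries per the labels' protocols, was analysed from the deposited raw counts per gene symbol and from the authors' deposited TPM values. GRCh38 and hg38 are named in the submitters' processing notes, and no label or file header names the aligner or counter. The deposited comparison tables hold a log2 fold change, a signed fold change score and p-values by the authors, and only their gene names were used. Symbols turned into dates in 28 rows held 0.439% of counts and were kept unnamed. Counts of 17 libraries in 6 groups were fitted in 1 model with edgeR 4.0.16 (R 4.3.3; TMM, filterByExpr, quasi-likelihood F test, Benjamini-Hochberg adjustment over 17567 genes, adjusted p under 0.05), and the SE is the log2 fold change divided by the square root of F. Library 9 was left out of this fit. DESeq2 1.42.0 and limma 3.58.1 on log2(TPM + 1) or log2(TPM + 0.1) were alternatives. Counting ratios carry exact 95% intervals. The 9 genes and the gene lists were chosen with earlier results of these data known. Of each list, up to 4 genes of smallest p in a comparison were named, and for each factor and line the 3 genes of highest Pearson r over log2(CPM + 0.1), among genes with a mean log2 CPM of at least 0. Upstream sequences came from RefSeq (GRCh38.p14). No column of the tables was left without a sample.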

Additional observations from a re-analysis of the deposited data

Results flagged for a closer look

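The effect of chronic dopamine on ISL1 and on LHX8 differed between the lines by the test of the difference itself, the H9 effect minus the H1 effect in edgeR. For ISL1 the adjusted p was 0.04152, with 20.1 ± 4.89 CPM in chronic H9 and 28.9 ± 3.48 CPM in H9 control (SD, n = 3 each), and 57 pooled reads in the 3 chronic H1 libraries and 3 in the 2 H1 controls. For LHX8 the adjusted p was 0.04711, with 1 pooled read in chronic H9 and 27 in H9 control, and 16 in chronic H1 and 0 in H1 control. Both values lie close to the threshold. The call was lost in 9 of 17 fits without a library for ISL1 and in 13 of 15 for LHX8, by limma with either pseudocount, and among the libraries with gut transcripts (adjusted p = 0.4477 for ISL1 and 0.2227 for LHX8).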

How the results depend on the processing

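Of 2288 values of the 9 factors recomputed under the alternatives, most kept their direction and side of the threshold, 76 crossed the threshold with the same sign, and 46 changed sign, none of them called in either fit; the cause of each change was not tested. The 8 calls between lines held throughout. In chronic H1, where 1 factor was called, 3 were called without a low-count filter and 3 by DESeq2, 2 with all 18 libraries, 4 with only the groups compared, 2 at an adjusted p under 0.1, and 0 by limma on log2(TPM + 0.1) or in libraries with gut transcripts. In chronic H9, where 1 was called, 0 were called by limma with either pseudocount, with all 18 libraries, with only the groups compared, with the library class as a covariate or in libraries with gut transcripts. Without a low-count filter 1 was called in acute H1, and DESeq2 called 1 between chronic and acute H1. Between chronic and acute H9, 0 were called with only the groups compared or in libraries with gut transcripts. For the line difference of the chronic effect, where 2 were called, 4 were called without a filter, 1 (ISL1) with a filter of 1 CPM in 2 libraries, by DESeq2, with all 18 libraries or with only the groups compared, 1 (GSX2, neither ISL1 nor LHX8) by limma on log2(TPM + 1), and 0 by limma on log2(TPM + 0.1) or in libraries with gut transcripts. Leaving out 1 library gave 0 to 3 calls in chronic H1, 0 to 1 in chronic H9, 0 to 1 between chronic and acute H9 and 0 to 2 for the line difference. LHX8 had no adjusted p there without library 16 or 17, with all 18 libraries, with the 1 CPM filter or by DESeq2. Over all genes, chronic H1 had 229 higher and 51 lower, against 405 and 79 without a filter, 401 and 131 by DESeq2, 470 and 299 with only the groups compared, 138 and 22 by limma on log2(TPM + 1), 157 and 18 with the covariate and 11 and 1 in libraries with gut transcripts. Chronic H9 had 3 higher and 111 lower, against 17 and 371, 37 and 309, 0 and 4, 12 and 166, 0 and 15 and 0 and 6 in the same order. Without 1 library these counts moved most without library 8 for chronic H1, to 15 and 1, and without library 17 for chronic H9, to 0 and 3. Log2 fold changes of opposite sign were, in chronic H9, 0.0092 and 0.3522 for GSX2 and -0.0969 and -0.1167 for ZFHX3 by limma on log2(TPM + 1) and log2(TPM + 0.1), and in acute H1 -0.0191 and -0.0204 for FOXP1. In libraries with gut transcripts they were -0.127 for LHX6 in chronic H9, -0.3905 for GSX2 in acute H9 and -0.0076 for the acute line difference of MEIS2, which was -0.0968 with all 18 libraries. With the library class as a covariate SP8 was -9e-04 in acute H9. Leaving out 1 library gave log2 ranges across 0 as follows. In chronic H1, FOXP1 had -0.1795 to 0.0274. In chronic H9, GSX2 had -0.7114 to 1.7284, LHX6 -0.0375 to 0.3693 and ZFHX3 -0.1713 to 0.3513. In acute H1, LHX6 had -0.6113 to 2.2759, FOXP1 -0.0909 to 0.1097 and ZFHX3 -0.0676 to 0.2533. In acute H9, GSX2 had -0.9037 to 2.3897, LHX6 -0.3698 to 0.0437, SOX6 -0.0852 to 0.1835, FOXP1 -0.0306 to 0.2121 and SP8 -0.1836 to 0.2818. Between chronic and acute H1, FOXP1 had -0.1658 to 0.0237 and SP8 -0.1723 to 0.4827, and in H9 GSX2 had -1.3151 to 0.8465 and ZFHX3 -0.4279 to 0.0948. The acute line difference was -2.9584 to 0.3353 for GSX2, -2.3813 to 0.507 for LHX6, -0.0184 to 0.2053 for MEIS2 and -0.035 to 0.2204 for FOXP1. Fitting only the groups compared gave no separate value for H9 against H1. No paired analysis was possible because the library numbers run from 1 to 18 and no number is shared between groups.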
